A study of Mus musculus with 20 samples.

Results

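The 9 genes described here act in fatty acid oxidation and ketone body metabolism or are targets of the peroxisome proliferator-activated receptors (PPARs). They were chosen by name (Cpt1a, Acads, Acadm, Hadh, Ehhadh, Acaa2, Bdh1, Pdk4 and Angptl4), and all 9 were among the 12701 genes of the count table. RNA came from the proximal colon (PC) of C57BL/6 mice that were placed on the Total Western Diet (TWD) at 3 weeks of age, kept on it for 6 weeks, and then given the TWD alone or the TWD with raw potato starch (RPS) at 2, 5 or 10% for 3 further weeks. The TWD, a rodent diet built to mirror the nutrient intake of a typical American diet, was therefore shared by all 4 groups, and the 0% RPS group is a Western-type diet control and not a chow control. Each diet had 5 libraries (20 in all), with total counts of 20581013 to 35083751 per library (median 26354926). The labels give neither the sex of the animals nor a statement that each library is a separate mouse, so p-values measure the spread between these libraries. Replicate numbers only name the libraries within a diet.

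Fatty acids are oxidised in mitochondria by repeated rounds of dehydrogenation, hydration, a second dehydrogenation and thiolytic cleavage, and long chains must first be carried in as carnitine esters. Peroxisomes run a parallel pathway for very long and dicarboxylic chains. Colonocytes take up butyrate, a product of starch fermentation by the cecal and colonic microbiota, and oxidise it by the same mitochondrial steps, and they can turn the resulting acetyl-CoA into ketone bodies. PPARs, which bind DNA as partners of the retinoid X receptor, are switched on by fatty acids and raise the transcription of many genes of these pathways.

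PPAR and its partner recognise a direct repeat of the hexamer AGGTCA with a 1-base spacer (AGGTCANAGGTCA, called DR1), and matches to it beside these genes are shown because the list joins PPAR targets with enzymes. On the GRCm39 genome, both strands were searched within 1000 bases of the start of each gene's canonical transcript with at most 1 mismatch. Such a match was found for 2 of the 9 genes, Acads and Hadh, and for 414 of 12682 genes in the table (3.26%). Exact matches anywhere in the gene lay in 3 of the 9 (Cpt1a, Acaa2 and Bdh1), against 8.74% of all genes, a share that depends on gene length. The sites of Acads, Hadh, Cpt1a and Bdh1 are given here 5′ to 3′ on the strand that holds the motif, with the 13-base match in capitals; the Acaa2 sites are not printed.
Acads, chr5:115256953-115256965, intron 1, 440 bases downstream of the start, 1 mismatch: tatgtccaAGGTCATAGGTCGgagttaaa
Hadh, chr3:131065020-131065032, intron 1, within 1000 bases downstream of the start, 1 mismatch: cgggcactGGGTCAAAGGTCAaagtttcc
Cpt1a, chr19:3392007-3392019, intron 1, exact: gcatgtggAGGTCAGAGGTCAattgtctt
Cpt1a, chr19:3401929-3401941, intron 2, minus strand, exact: aaaggtggAGGTCAGAGGTCAgatctctc
Bdh1, chr16:31243767-31243779, upstream of the canonical start, exact: acacttgtAGGTCAGAGGTCAactttagg
A match is a description of letters and not evidence of binding, and its absence at the other 4 genes says only that these letters are not in the searched windows.

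All 9 genes were expressed in every library, at levels far above the detection floor of 3 counts per library (0.0855 to 0.146 CPM, counts scaled to the library total). Per kilobase of canonical transcript, the median normalised count over the 20 libraries was highest for Hadh (5661), followed by Acads (3547), Acaa2 (2703) and Acadm (2459). Cpt1a (1361) and Bdh1 (1341) came next and were not separated, since Cpt1a was above Bdh1 in only 8 of 20 libraries. Ehhadh (621), Pdk4 (346) and Angptl4 (162) were the lowest. Ehhadh lay above Pdk4 in 16 of 20 libraries and Acaa2 above Acadm in 19, while each other neighbouring pair kept its order in all 20. The mitochondrial enzymes of the short- and medium-chain steps were thus the most abundant transcripts of the list in the PC on every diet.

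The 7 general epithelial markers, among them Epcam and Krt8, summed to 278826 to 389350 normalised counts per library, so the epithelium of the labelled tissue was present in each. One library stood apart in the markers of colon position and cell content. Replicate 2 on 0% RPS had 7066 counts of Hadh, 3159 of Acaa2, 6110.3 of Cpt1a and 994 of Ehhadh, the lowest of the 20 libraries for each. It also had 1024 counts of Hoxa13, a marker of distal position, against at most 198 elsewhere. The other listed position markers, Hoxb13, Hoxd13 and Hoxd12, are not in the count table. Its smooth muscle (272829), plasma cell (18234), macrophage (2873) and endothelium (3635) marker sums were the highest of the 20 libraries. Its general epithelial (313349) and adipocyte (6460.2) marker sums lay within the range of the other libraries. Its 5 surface colonocyte markers did not differ one way. Car1 was the lowest of the 20 libraries (70115, others at least 239322), Slc26a3 and Aqp8 were the highest (12364 and 6463, others at most 7065 and 3003), and Car4 and Krt20 lay within the range of the other libraries. The part of this library's position or cell content in its values was not tested. Without it no member was called either. By DESeq2 the log2 fold change of Cpt1a at 5% RPS was -0.27 without it and -0.15 with it (adjusted p 0.121 and 0.577), and at 10% RPS it was -0.19 without and -0.07 with it. At 10% RPS the value of Acaa2 was -0.09 without and 0.02 with it, and that of Hadh -0.15 without and -0.05 with it.

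No member was called in any comparison. A gene was called at a DESeq2 adjusted p of at most 0.05 with a fold change of at least 1.5 (the trend over RPS percentage had no fold threshold). For 2% against 0% RPS, 0 of 9 were called where 0.0239% of all tested genes were. For 5% against 0% RPS the count was 0 of 9 with 0.438% of all genes called, and for 10% against 0% RPS it was 0 of 9 with 0.900%. Between the starch diets, 0 of 9 were called for 5% against 2% RPS (0% of all genes), 10% against 2% RPS (0.0557%) and 10% against 5% RPS (0.00796%). The trend called 0 of 9 members and 4.29% of all genes. At backgrounds this low a count of 0 among 9 genes says little about them, and the intervals of the differences carry more. By an unadjusted DESeq2 p under 0.05, 1 member passed in each comparison with 0% RPS and in the trend (Bdh1 each time), 0 passed for 5% or 10% against 2% RPS, and 2 passed for 10% against 5% RPS (Ehhadh and Pdk4). The share of all tested genes at that threshold was 8.70, 16.6 and 18.8% for 2, 5 and 10% against 0% RPS, 2.86% for 5% against 2% RPS (for 10% against 2% RPS it was 1131 of 12561 genes), 4.11% for 10% against 5% RPS, and 2397 of 12545 genes in the trend. The count of 2 for 10% against 5% RPS was 0 without 5% RPS replicate 1 or 3 or 10% RPS replicate 1, 2 or 3, each left out alone. edgeR also called 0 of 9 in all 7 comparisons. The 3 comparisons with 0% RPS share the same 5 control libraries, so their values stand side by side and do not repeat one another independently.

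**Figure D1:**
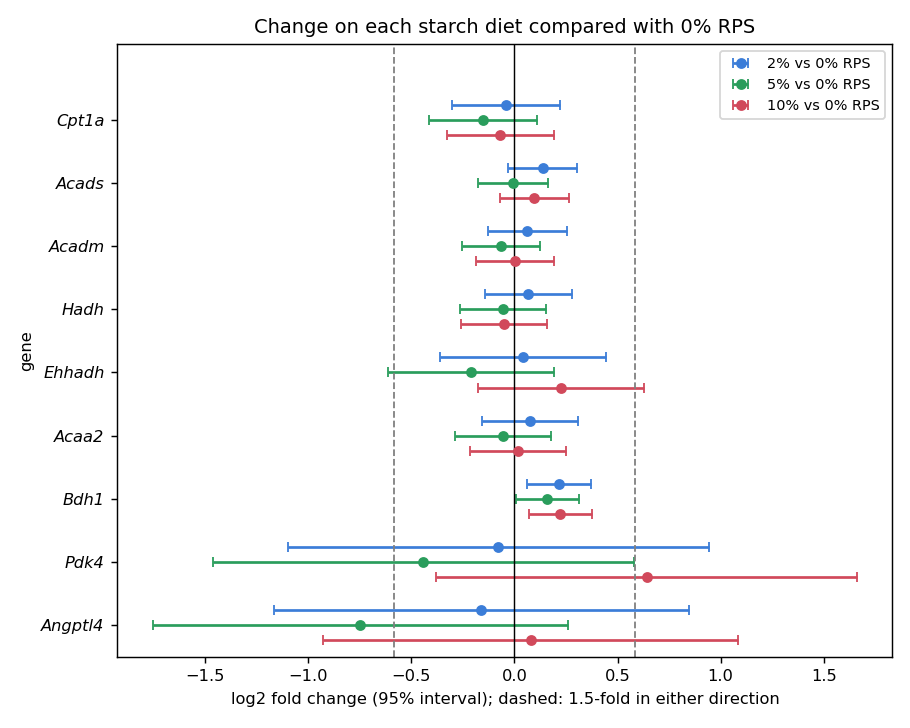
Log2 fold changes of the 9 genes (vertical axis) on 2, 5 and 10% RPS against 0% RPS from DESeq2, with 95% intervals as bars and a 1.5-fold change in either direction as dashed lines. The intervals of Cpt1a, Acads, Acadm, Hadh, Acaa2 and Bdh1 lie between the dashed lines at every dose, while those of Pdk4 and Angptl4 reach well past them.

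For most of the enzymes the 95% interval of the difference lay wholly inside a 1.5-fold change in either direction. This held for 7 of 9 members at 2% RPS, 6 of 9 at 5% and 6 of 9 at 10% against 0% RPS, beside 87.3, 84.1 and 82.8% of all tested genes. The share among the members was thus below that of all tested genes at each dose, and such intervals are not particular to the list. The members outside it were Pdk4 and Angptl4 at every dose and Ehhadh at 5 and 10%. The median log2 fold change of the members was 0.06, -0.06 and 0.08 at 2, 5 and 10% RPS, against -0.01, -0.01 and 0.00 over all tested genes.

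Cpt1a (ENSMUSG00000024900, chr19:3371853-3437996, plus strand) encodes the outer-membrane carnitine palmitoyltransferase that commits long-chain fatty acids to mitochondrial import. On 0% RPS its normalised counts were 9233, 6110.3, 12046, 10366 and 8743, and on 2% RPS they were 8337, 9787, 8710.0, 9279.5 and 9125. On 5% RPS they were 7003, 8721, 7157, 9896 and 9026, and on 10% RPS 8094, 8917, 9681, 9466 and 8203. The 0% group held both the lowest and the highest of the 20 libraries, and the 4 diets overlapped. The log2 fold change was -0.04, -0.15 and -0.07 at 2, 5 and 10% RPS (SE 0.13 each), with DESeq2 adjusted p-values of 0.954, 0.577 and 0.818.

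Acads (chr5:115248357-115257405, minus strand), the short-chain acyl-CoA dehydrogenase that performs the first step on butyryl-CoA, ranged from 5714 to 8195 normalised counts over the 20 libraries. Its diet means were 6473 ± 598 (SD, n = 5), 7114 ± 389, 6442 ± 659 and 6923 ± 799.8 at 0, 2, 5 and 10% RPS. Acadm (chr3:153627989-153650317, minus strand), the medium-chain counterpart, ranged from 4044 to 5736, with means of 4989 ± 647, 5209 ± 205, 4769 ± 605 and 4997 ± 499. For both dehydrogenases all diets overlapped. At 10% RPS the log2 fold change of Acads was 0.10 (95% interval -0.07 to 0.27), and that of Acadm was 0.00 (-0.19 to 0.19), so a change as large as 1.5-fold lay outside both intervals.

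Hadh (chr3:131027068-131065750, minus strand), the 3-hydroxyacyl-CoA dehydrogenase of the third step, had normalised counts of 11169, 7066, 11043, 9838 and 10574 on 0% RPS and 10088, 10192, 11057, 10548 and 10168 on 2% RPS. On 5% RPS the values were 8473, 9380.5, 8474, 10646 and 10877, and on 10% RPS 10280.0, 9797, 10086, 9556 and 8244. One 0% library (replicate 2) was the lowest of all 20, and the other 4 of that diet lay within the range of the starch diets or slightly above it. The log2 fold change was 0.07, -0.05 and -0.05 at 2, 5 and 10% RPS, with an adjusted p by DESeq2 of 0.829 at 10%. Acaa2 (chr18:74911948-74953492, plus strand), the mitochondrial thiolase of the last step, ranged from 3159 to 5573, with the same 0% library lowest. Its means were 4559 ± 894 (SD, n = 5), 4803 ± 258, 4386 ± 600.3 and 4614 ± 417, and the log2 fold change at 10% RPS was 0.02 (95% interval -0.22 to 0.25).

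Ehhadh (chr16:21580036-21606563, minus strand), the peroxisomal bifunctional enzyme and a known PPAR target, varied more. Its normalised counts were 2139, 994, 2135, 2217 and 1648 on 0% RPS and 1397, 1591, 2771, 2100.0 and 1554 on 2% RPS. On 5% RPS they were 1337, 1482, 1239, 2026 and 1817, and on 10% RPS 2258, 2259, 2453, 1855 and 1856. The 10% libraries spanned the narrowest range, and 3 of the 5 lay above every 5% library. For 10% against 5% RPS the log2 fold change was 0.43 (SE 0.21), with an adjusted p of 1 in the DESeq2 fit (unadjusted 0.0341). Against 0% RPS it was 0.04, -0.21 and 0.23 at 2, 5 and 10% RPS, and none passed the test. Leaving out 1 library at a time, it ran from -0.365 (without 0% RPS replicate 2) to -0.13 (without 0% RPS replicate 4) at 5% RPS and from 0.0702 to 0.304 (without the same 2 libraries) at 10% RPS.

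Bdh1 (ENSMUSG00000046598, chr16:31241087-31277725, plus strand) encodes the mitochondrial dehydrogenase that interconverts acetoacetate and 3-hydroxybutyrate, the last step of ketone body synthesis and the first of their use. Its normalised counts were 4249.9, 3602, 4131, 3685 and 3477 on 0% RPS and 4486, 4699, 4289.7, 3921 and 4840.1 on 2% RPS. On 5% RPS they were 4397, 4437, 4038, 4112 and 4378, and on 10% RPS 4949.6, 4139, 5018, 4134 and 4107. Each starch diet lay higher on average than the control, at 4447 ± 361, 4273 ± 183 and 4469 ± 471 against 3829 ± 341 (mean ± SD, n = 5), but all 3 overlapped it, since the highest 0% library was above the lowest of each. The log2 fold change was 0.22 (0.06 to 0.37) at 2%, 0.16 (0.01 to 0.31) at 5% and 0.22 (0.07 to 0.38) at 10% RPS. The DESeq2 adjusted p-values were 0.421, 0.283 and 0.0727, and those of edgeR 0.591, 0.306 and 0.140, so the difference did not pass. The difference between 10 and 2% RPS was 0.01 (SE 0.08). The trend gave a log2 difference of 0.16 over 10 percentage points of RPS (0.00 to 0.31), with a DESeq2 adjusted p of 0.257.

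The small difference in Bdh1 was sensitive to single libraries. Over 18 alternatives at 10% RPS, its adjusted p ran from 0.0306 to 0.455 and its log2 fold change from 0.16 to 0.30. It was under 0.05 in 4 of them, by DESeq2 0.0306 without 0% RPS replicate 1, 0.0393 without 0% RPS replicate 3, 0.0466 without 10% RPS replicate 2 and 0.0471 without the 3 libraries whose label numbers stand apart from the run of the other 17. At 2% RPS the adjusted p was 0.0452 without 0% RPS replicate 1. The fold stayed under 1.5 in each case. With the epithelial marker score as a covariate the adjusted p at 10% RPS was 0.455, against 0.0727 without it. Of the 7 general epithelial markers that make up the score, Epcam alone had an adjusted p under 0.05 at 10% RPS (DESeq2 0.00666, log2 fold change 0.19, less than 1.5-fold), and the median log2 fold change of the 7 was 0.13. Of the 5 surface colonocyte markers, Krt20 alone did (log2 fold change 0.47, DESeq2 adjusted p 0.0193). Car1 had the largest log2 fold change (0.63), Slc26a3 and Aqp8 had -0.43 and -0.93, and none of these passed. The median of the 5 was 0.31. At an unadjusted DESeq2 p under 0.05, 3 of the 5 passed, where 18.8% of all tested genes did. Slc26a3 and Aqp8 were highest in replicate 2 on 0% RPS (12364 and 6463, against at most 7065 and 3003 in the other libraries). The part of epithelial content in the Bdh1 values was not tested beyond that fit, and in bulk tissue fewer cells of a type and less RNA per cell cannot be told apart. Of the 50-base windows of Bdh1 transcripts, 18.5% also occur in Gm15743, which overlaps it on the opposite strand, and the strand setting of the counting is not given in the sources used here.

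**Figure D2:**
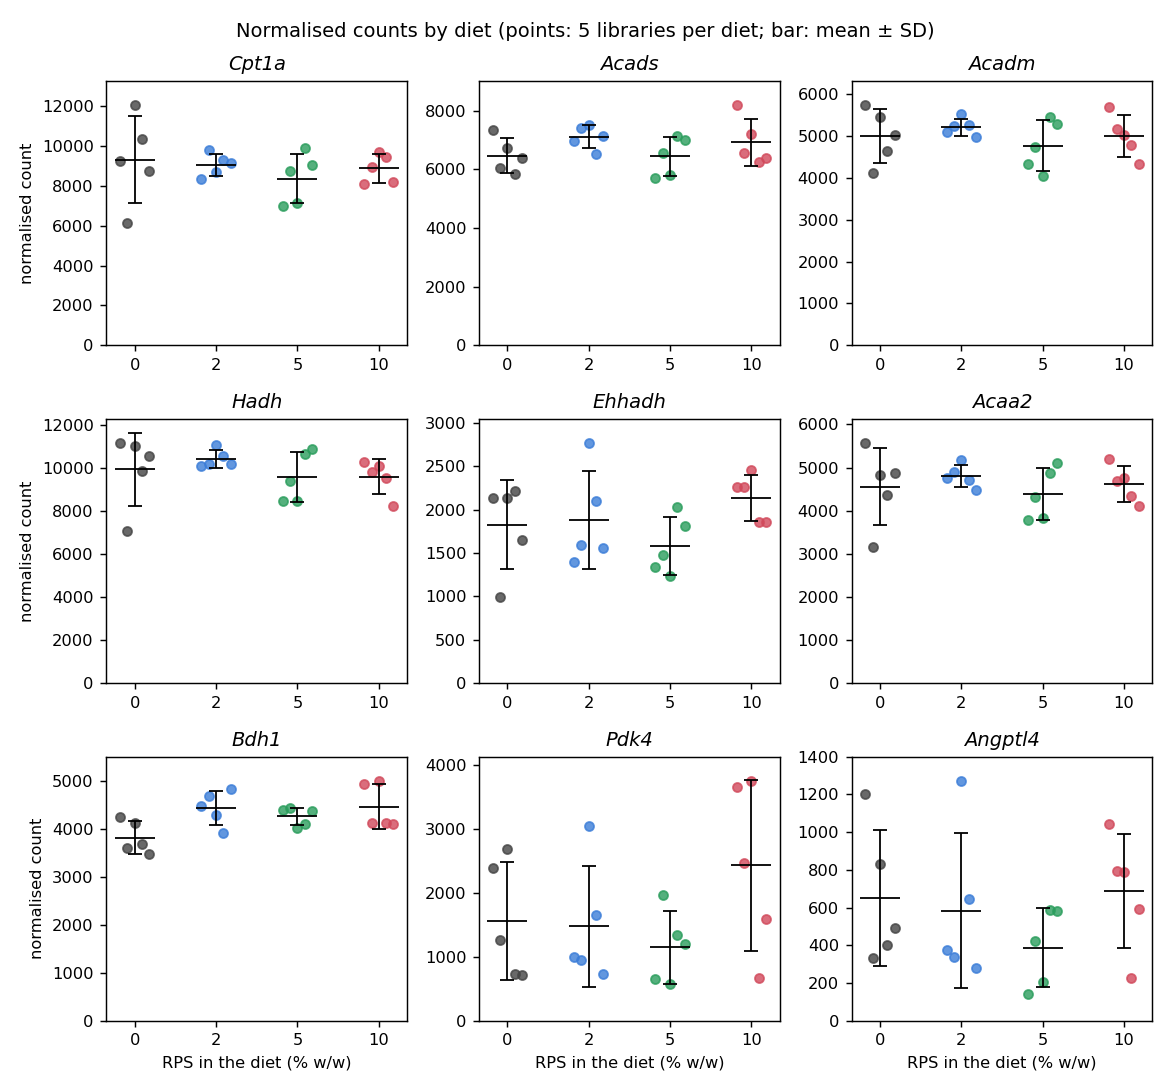
Normalised counts (vertical axes, from 0) of the 9 genes by RPS in the diet (horizontal axes, %), with 5 libraries per diet as points and the mean ± SD as bars. The diets overlap for every gene, Ehhadh has diet means of 1580.3 to 2136, Bdh1 is lowest on average at 0% RPS (3829), and Pdk4 and Angptl4 spread widely within every diet.

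Pdk4 and Angptl4 are the PPAR targets of the list that are not enzymes of oxidation itself. Pdk4 (chr6:5483097-5496339, minus strand) encodes a kinase that inhibits pyruvate dehydrogenase and so spares glucose carbon when fat is burned. Its normalised counts were 2378, 1258, 2684, 735.9 and 718.5 on 0% RPS and 1003, 950.0, 3039, 1645 and 724.2 on 2% RPS. On 5% RPS they were 655, 1960.0, 567, 1345 and 1194, and on 10% RPS 3655, 2469, 3750.1, 664 and 1585. Low libraries occurred on every diet (the lowest were 718.5, 724.2, 567 and 664 at 0, 2, 5 and 10% RPS), and the 2 highest were on 10% RPS. The log2 fold change was -0.08, -0.44 and 0.64 at 2, 5 and 10% RPS (SE 0.52 each). The 95% interval at 10% RPS ran from -0.38 to 1.66, a range that holds both no change and a change well past 1.5-fold. For 10% against 5% RPS the log2 fold change was 1.08 (SE 0.52), with a DESeq2 adjusted p of 1 (unadjusted 0.0377).

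Angptl4 (chr17:33992724-34000804, minus strand) encodes a secreted inhibitor of lipoprotein lipase that limits fat uptake into tissues. Its normalised counts were 1201, 334, 830.0, 404 and 489 on 0% RPS and 375, 339, 1273, 643 and 282 on 2% RPS. On 5% RPS they were 139, 423, 207, 587 and 583, and on 10% RPS 1044, 791.8, 785.8, 227 and 592. The diets overlapped throughout, and the 5% RPS libraries held the 2 lowest values and none above 587. The log2 fold change was -0.16 at 2%, -0.75 at 5% (-1.76 to 0.26) and 0.08 at 10% RPS (-0.93 to 1.08), with adjusted p-values of 0.95, 0.465 and 0.95 by DESeq2.

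The spread within a diet separated these 2 genes from the enzymes. The SD of log2 normalised counts around the diet mean was 0.88 for Pdk4 and 0.86 for Angptl4, and only 0.442 and 0.494% of the 11541 genes with a mean of at least 100 had a larger one. It was 0.36 for Ehhadh, 0.22 for Cpt1a, 0.20 for Acaa2, 0.18 for Hadh, 0.15 for Acadm, 0.13 for Acads and 0.12 for Bdh1, around a median of 0.15 over those genes. The highest library exceeded the lowest 9.13-fold for Angptl4 and 6.62-fold for Pdk4, but 1.42-fold for Acadm.

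Over the 20 libraries Pdk4 and Angptl4 varied together. Pearson's r of their log2 normalised counts was 0.866 and Spearman's rho 0.889 (n = 20, permutation test with 100000 resamples, adjusted p over 36 pairs 0.000144 and 9e-05). Pearson's r was 0.865 without the 2 libraries farthest from the Pdk4 median, which were chosen by Pdk4 alone and not by Angptl4. It was 0.875 after each diet's mean was subtracted, so it did not rest on differences between diets. The mitochondrial enzymes Hadh and Acaa2 (r 0.948, rho 0.907), Acadm and Acaa2 (r 0.932, rho 0.937) and Acadm and Hadh (r 0.906, rho 0.901) were the closest pairs by permutation test, each with an adjusted p of at most 0.000144. Without the 2 libraries farthest from the median of the gene named first in each pair, r was 0.922, 0.944 and 0.897. Without replicate 2 on 0% RPS it was 0.909, 0.954 and 0.914 (Pdk4 and Angptl4, 0.872). Bdh1 had low values with Angptl4 (r 0.116, permutation adjusted p 0.630) and Cpt1a (r 0.144, permutation adjusted p 0.564), and of the members was closest to Acads (r 0.647). These libraries share diets, a normalisation and whatever tissue composition each piece had.

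**Figure D3:**
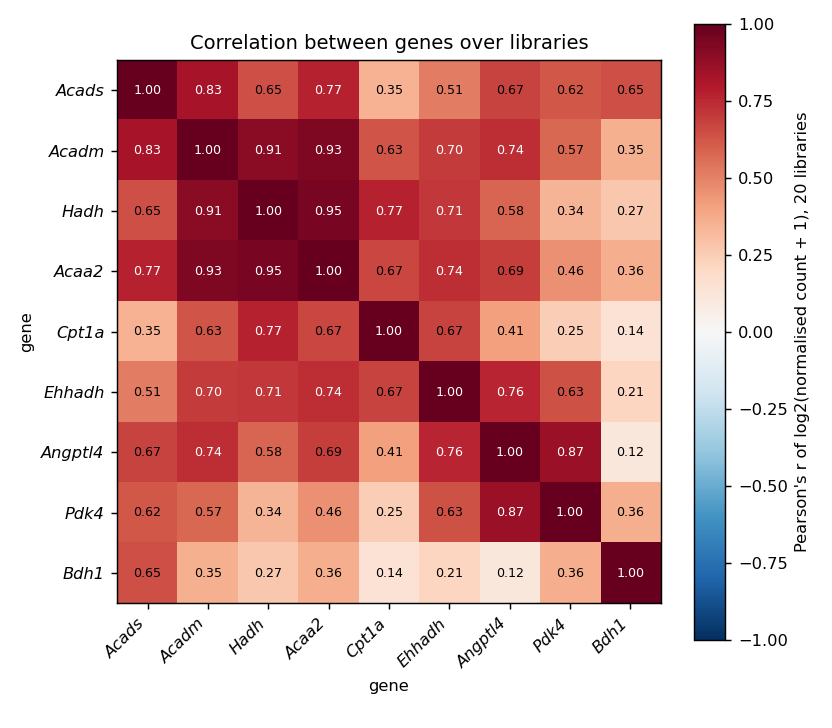
Pearson's r between the 9 genes (both axes) over 20 libraries, on log2(normalised count + 1). Acadm, Hadh and Acaa2 form the closest set (0.906 to 0.948), Pdk4 pairs with Angptl4 (0.866), and Bdh1 has values of 0.116 to 0.364 with every member but Acads (0.647).

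A search of 12339 other genes (mean of 10 or more normalised counts) gave those nearest in pattern over the 20 libraries, by Pearson's r and as a description. Hsd17b4 (r 0.908) and Arg2 (0.892) were among the nearest to Ehhadh. Acaa2 and Acadm were both nearest to Ech1 (0.947 and 0.905). Bdh1 was nearest to Mdh1 (0.922), Uqcrfs1 (0.898) and Atp5mc3 (0.895). Pdk4 was nearest to Sqstm1 (0.859), Tmc7 (0.842) and Creb3l3 (0.840), and Angptl4 to Atp11a (0.903), Sqstm1 (0.895) and Plin2 (0.886). Hadh was nearest to Btnl1 (0.920), Acads to Gpi1 (0.844) and Cpt1a to Rundc3b (0.899).

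Adipocyte markers also varied widely between libraries. The summed normalised count of 6 adipocyte markers in the table (Lep is not in it) was 4907, 6460.2, 1542, 4043 and 2231 on 0% RPS and 4541, 2274, 8239, 3496 and 2916 on 2% RPS. It was 1493, 2662, 1194, 1944 and 2381 on 5% RPS and 20941, 3749, 5855, 2926 and 3677 on 10% RPS. The library with the highest sum, replicate 1 on 10% RPS, had 3655 counts of Pdk4 and 1044 of Angptl4, and replicate 3 on 2% RPS, the next highest, had 3039 and 1273. Replicate 2 on 0% RPS, the third highest, had only 1258 and 334. Replicate 3 on 0% RPS, with a sum of 1542, still had 2684 and 830.0. None of the 6 markers passed the test in any comparison by DESeq2. At an unadjusted p under 0.05, 4 did for 5% against 0% RPS, 5 for 5% against 2% and 6 for 10% against 5%, where 16.6, 2.86 and 4.11% of all tested genes did. The part of fat tissue in the Pdk4 and Angptl4 values was not tested.

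**Figure D4:**
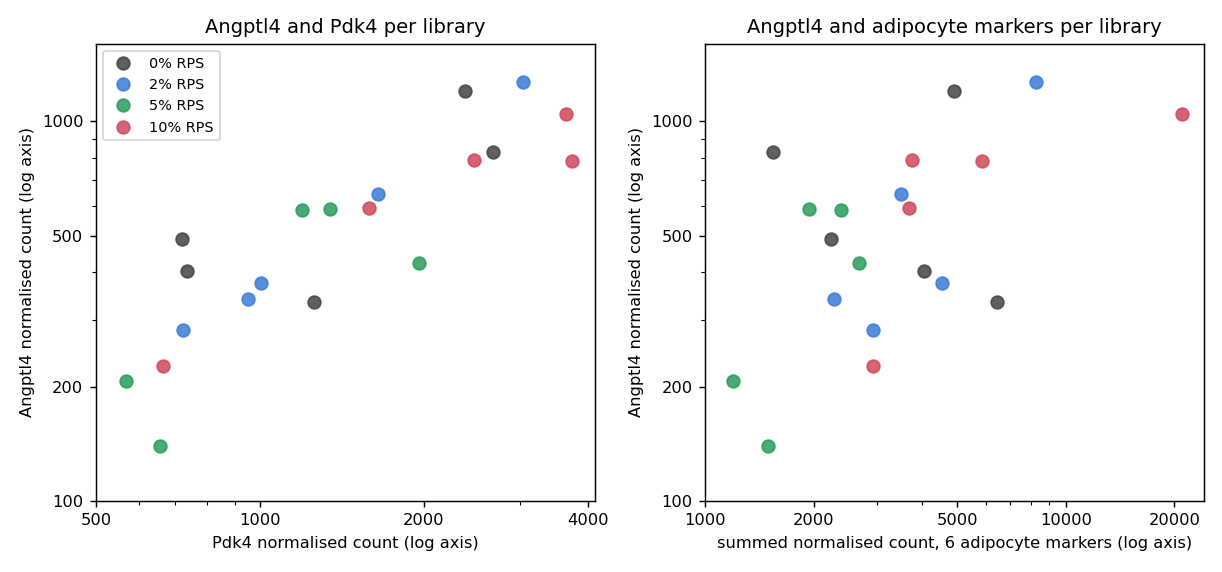
Angptl4 normalised count (log axes) against Pdk4 (left) and against the summed count of 6 adipocyte markers (right) in each of the 20 libraries, coloured by diet. Angptl4 varies with Pdk4 (r 0.866 on the log2 scale over all libraries), while libraries of like adipocyte sum differ widely in Angptl4.

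None of the other genes listed for these pathways was called. The lists named 90 further genes, of which 81 were in the count table. Those present were 21 of mitochondrial and 14 of peroxisomal oxidation, 5 of 6 of ketone metabolism and 11 of 17 other PPAR targets. The rest were 15 regulators, 10 of the pyruvate dehydrogenase system and 5 of 7 of the lipoprotein lipase system. The PPAR targets Plin5, Cyp4a10, Cyp4a14, Ucp3, Fgf21 and Aqp7 were absent, so nothing is said of them. By DESeq2, 0 of 81 were called in any of the 7 comparisons, and 4, 13 and 13 had an unadjusted p under 0.05 at 2, 5 and 10% against 0% RPS, with 10 in the trend. Over all tested genes that share was 8.70, 16.6 and 18.8% at the 3 doses, and 2397 of 12545 genes in the trend. The smallest adjusted p at 10% RPS was that of Decr1, an auxiliary enzyme for unsaturated chains (log2 fold change 0.22, DESeq2 adjusted p 0.0640), and at 5% RPS that of Esrra, a nuclear receptor that drives oxidative genes (0.23, DESeq2 adjusted p 0.0887); both were named after their values were seen. The 11 PPAR targets had a median log2 fold change of -0.08, -0.27 and -0.06 at 2, 5 and 10% RPS. The PPAR genes themselves did not move one way at 10% RPS. The log2 fold change of Ppara was -0.44 (SE 0.23, DESeq2 adjusted p 0.291). That of Ppard was 0.24 (SE 0.11, DESeq2 adjusted p 0.192) and that of Pparg 0.01 (SE 0.13, DESeq2 adjusted p 0.97). The Ppara counts were 1078, 351, 1255, 1215 and 1432 on 0% RPS and 663, 847, 789, 931 and 709 on 10% RPS. Replicate 2 held the lowest 0% value, and every 10% library lay below the other 0% libraries. The part of replicate 2 in the Ppara result was not tested.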

How the data were processed

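RNA-seq libraries of proximal colon were prepared with a stranded mRNA kit. Per the study's methods, the authors removed nucleotides below a quality cut-off, aligned the reads to GRCm39 in CLC Genomics Workbench and deposited raw read counts per Ensembl gene. The annotation, strand setting and treatment of reads with several matches are not given in the sources used here. Of 12701 gene IDs, 12682 matched GENCODE M39. Groups came from the diet in the labels. The member genes and all lists were chosen with earlier results of these data known.

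Counts of all 20 libraries were fitted with DESeq2 1.42.0 (R 4.3.3; Wald test, Benjamini-Hochberg adjustment, median-of-ratios size factors), with diet as the only term. A gene was called at an adjusted p of at most 0.05 and an unshrunken fold change of at least 1.5. A separate fit took RPS percentage as a number. The test was the study's; edgeR 4.0.16 (quasi-likelihood) was an alternative. The fits were tested on simulated data. Motifs were read from GRCm39 with pysam 0.24.0. Named genes were the 9 members, any called pathway gene (at most 10 per comparison; there was none) and, for each member, up to 3 genes nearest in pattern; 1 gene is not reported here. Other alternatives were TMM factors, a filter of 10 counts in 5 libraries, no independent filtering, marker scores as covariates, other fold thresholds, the compared diets only, and leaving out libraries. No column of the table was left out.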

Additional observations from a re-analysis of the deposited data

How the results depend on the processing

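The count of members called was 0 under all 148 alternatives over the 7 comparisons. No paired analysis was run, since the labels link no library of one diet to a library of another.

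The counts over all genes moved. Against 113 called for 10% against 0% RPS, edgeR called 40, the epithelial score as a covariate left 41, leaving out the 3 libraries with stray label numbers 67, a fold of 2 44 and no fold threshold 578, and leaving out 1 library gave 62 (without 10% RPS replicate 5) to 201 (without 0% RPS replicate 2). Against 55 for 5% against 0% RPS, these were 7 by edgeR, 15, 24 with a fold of 2, 239 with none, and 24 to 104. For 2% against 0% RPS (3), edgeR called 0, the epithelial score 1 and the smooth muscle score 6, and leaving out 1 library gave 1 to 10. Between starch diets, 5% against 2% RPS (0) gave 1 without the 3 libraries, 3 with only the diets compared, and 0 to 1 leaving out 1 library. For 10% against 2% RPS (7), TMM gave 1, the 3 libraries left out 3, edgeR 0, only the diets compared 22, no fold threshold 18, a fold of 2 4, and leaving out 1 library 1 to 12. For 10% against 5% RPS (1), TMM, the epithelial score, edgeR and a fold of 2 gave 0, the smooth muscle score, the 3 libraries left out and no fold threshold 2, only the diets compared 4, and leaving out 1 library 0 to 3. The trend (538) called 202 with the epithelial score, 265 without the 3 libraries, 165 by edgeR, 144 in the starch diets alone, and 178 (without 10% RPS replicate 5) to 807 (without 0% RPS replicate 2). The causes were not tested.

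Of 738 member values under alternatives, 689 kept their sign and their side of the threshold and 49 changed sign, none of them a called value. The changes of sign fell on 18 results, and the largest log2 fold change among those 18 in the main fit was 0.162 in size. Without the 3 libraries the log2 fold change became 0.0949 for Pdk4 and 0.0137 for Angptl4 at 2%, 0.0159 for Hadh at 10%, and the trend slope 0.00315 for Acadm and 0.00375 for Acaa2. Acadm at 10% was -0.0026 with TMM, -0.0168 with the smooth muscle score and -0.00108 by edgeR. Acaa2 at 10% was -0.00232 with that score, and the slope of Acads -0.00258 in the starch diets alone. Leaving out 1 library, log2 fold changes at 2% RPS ran from -0.158 to 0.0707 for Cpt1a, -0.0327 to 0.112 for Hadh, -0.138 to 0.134 for Ehhadh, -0.0308 to 0.157 for Acaa2, -0.525 to 0.211 for Pdk4 and -0.669 to 0.179 for Angptl4. At 5% they ran from -0.0463 to 0.0429 for Acads and -0.163 to 0.0262 for Acaa2. At 10% they ran from -0.186 to 0.0422 for Cpt1a, -0.0599 to 0.0567 for Acadm, -0.089 to 0.0991 for Acaa2 and -0.12 to 0.42 for Angptl4. Trend slopes (log2 per 1% RPS) ran from -0.0149 to 0.000655 for Cpt1a, -0.00279 to 0.00715 for Acads, -0.00851 to 0.00106 for Acadm, -0.00943 to 0.00306 for Acaa2 and -0.0186 to 0.0325 for Angptl4. With 5 libraries a diet, Pdk4 and Angptl4 would need a change of over 2-fold for the interval to leave 0.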
